A study of Mus musculus with 4 samples.

Results

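RMER elements are repeats of rodent genomes, and nearly all of them are the remains of endogenous retroviruses (ERVs). In the counts per TE subfamily, 55 of the 1072 subfamilies have a name that begins with RMER, and these 55, RMER17 and its parts included, are described here. For RNA-seq, 1 library was made from each of 2 WT samples and 2 Pim3-/- clones of mouse embryonic stem cells (ESCs). All 4 came from the line E14, whose strain is labelled 12910la, and all were grown on gelatin in serum with LIF, the cytokine that keeps ESCs undifferentiated. Pim3, a serine/threonine kinase gene, had been cut with CRISPR/Cas9 in the Pim3-/- cells. Each Pim3-/- library stands for 1 clone, so that a difference between genotypes and a difference between the chosen clones and cultures cannot be told apart. The study asked what part the PIM kinases play in the potency of ESCs, with the expression of TEs among its readouts, and the question here is which RMER elements differed between the genotypes.

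An ERV has an internal part, which once coded for the viral proteins, between a pair of long terminal repeats (LTRs), which hold the promoter and the end of the viral transcript. Recombination between the LTRs of a copy removes the internal part, and most old copies are therefore solo LTRs. In ESCs many ERVs are kept silent by zinc finger proteins that recruit TRIM28 and the H3K9 methyltransferase SETDB1, and by DNA methylation, while the LTRs of some ERVs serve as promoters or enhancers of genes. In the RepeatMasker annotation, names that end in -int are internal parts, and RMER names without this ending are LTRs, except RMER30. Of the 55 RMER subfamilies, 43 are placed in ERVK, the class of the beta-like retroviruses, 4 in ERVL, the class to which MuERVL belongs, and 4 in ERV1, the class of the gamma-like retroviruses. RMER30 belongs to hAT-Charlie, a family of DNA transposons. The remaining 3, RMER3D1, RMER3D2 and RMER3D3, had no family in the annotation used here.

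The counts on TEs summed to 546500 in WT replicate 1, 680595 in WT replicate 2, 821065 in Pim3-/- replicate 1 and 808450 in Pim3-/- replicate 2. RMER subfamilies took 13025, 15881, 21818 and 22316 of these. For every 100 counts on genes there were 2.36 and 2.65 counts on TEs in WT and 3.59 and 3.67 in Pim3-/- ESCs, and the part of this shift in the results below was not tested. Pim3 itself had 4392 to 4970 counts in every library, so the count per gene does not check the labels. Summed over 8 ESC markers, the level was 9174 to 10216 CPM of the gene table in WT and 6230 to 6580 in Pim3-/- ESCs, with 3 lower (Pou5f1, Nanog and Dppa5a) and 1 higher (Klf4) by the test used below, against 16.2% and 17.6% of all genes. Dppa5a and Pou5f1, the highest of the 8 in WT, fell from means of 3961 and 2244 CPM to 2027 and 1029 CPM. By estimate 4 of the 8 were higher and 4 lower. Their median log2 fold change was -0.23, beside 0.07 for all genes. With scaling by library totals these medians were 0.22 and 0.52. Of 7 primitive endoderm markers, 6 passed the count filter and all 6 were higher in Pim3-/- ESCs at an adjusted p under 0.05. Sox7 had 3 and 0 counts in the WT libraries against 91 and 67 in the Pim3-/- libraries. Sox17 had 1 and 5 against 85 and 10. Both passed the filter through the Pim3-/- libraries, so that a call could only be higher. Dab2 had 189 and 46 counts in the 2 clones. With a filter on 10 counts in every library, 3 endoderm markers were called higher, against 2689 of 15916 genes. In edgeR the calls of all 6 were lost with WT replicate 1 or 2 left out, as were most calls among all genes. The summed level of the 7 endoderm markers was 2.97 to 5.12 CPM in WT and 18.7 to 33.7 CPM in Pim3-/- ESCs. Among these markers Foxa2 was at 0 in both WT libraries, and Sox7 in WT replicate 2. For 6 trophoblast markers the sum was 63.8 to 65.5 CPM in WT and 49.9 to 81.8 CPM in Pim3-/- ESCs. Most of it was Tfap2c, with means of 59.7 CPM in WT and 45.6 CPM in Pim3-/- ESCs. Of the 4 tested, 2 (Eomes and Gata3) were higher past the same threshold. Gata3 had 4 counts in each WT library against 28 and 22, and passed the filter through the Pim3-/- libraries. It did not pass the Wald test of DESeq2 (adjusted p = 0.0795). For 7 fibroblast markers the sum was 24.4 to 25.6 CPM in WT and 28.7 to 30.1 CPM in Pim3-/- ESCs. Of the 3 tested, 1 (Twist1) was higher past the same threshold, and Postn and Dcn were at 0 in both WT libraries. The part of these other cell types in the results on RMER elements was not tested. In bulk RNA, fewer cells of a type and less RNA per cell cannot be told apart.

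Of the 55 subfamilies, 50 passed the filter on low counts and were tested together with all other TEs, 828 in all. RMER3D1 and RMER3D2 had no count in any library, which allows up to 3 counts in each, or 3.40 to 5.88 CPM of the TE table, for counting error only. RMER3D3 had 1 count in WT replicate 2 and 3 counts in Pim3-/- replicate 2. RMER3D4 had 5 and 7 counts in the WT libraries against 7 and 3 in the Pim3-/- libraries, and RMER16B3 had 6 and 9 against 10 and 6. No fold change is given for these 5. Counts of different subfamilies add up copies that differ in number and length, and are not compared here as levels.

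In Pim3-/- ESCs, 3 RMER subfamilies were higher and 1 was lower. All 3 of the former belong to RMER17, an ERVK group, and they were the internal part RMER17A-int with the LTRs RMER17A and RMER17D. The latter was RMER21A, an LTR of ERV1. Among all tested TEs, 3.38% were called higher and 5.31% lower by the same test (the quasi-likelihood (QL) F-test of edgeR, with a Benjamini-Hochberg (BH) adjusted p under 0.05), so that the number of RMER subfamilies called, 4 of 50, was near the background. A change of at least 2-fold in addition was found for RMER17A-int only, against 2.17% of TEs higher and 2.54% lower by that rule. The median log2FC (log2 fold change, Pim3-/- over WT) of the 50 was -0.02, beside 0.01 for all tested TEs. The middle 50% of the RMER subfamilies lay between -0.18 and 0.12, and that of all TEs between -0.24 and 0.34, with median standard errors of 0.16 and 0.22. Both Pim3-/- libraries were above both WT libraries for 12 of the 50 and below them for 7, against 29.2% of all TEs in each direction, and the groups overlapped for 31.

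**Figure D1:**
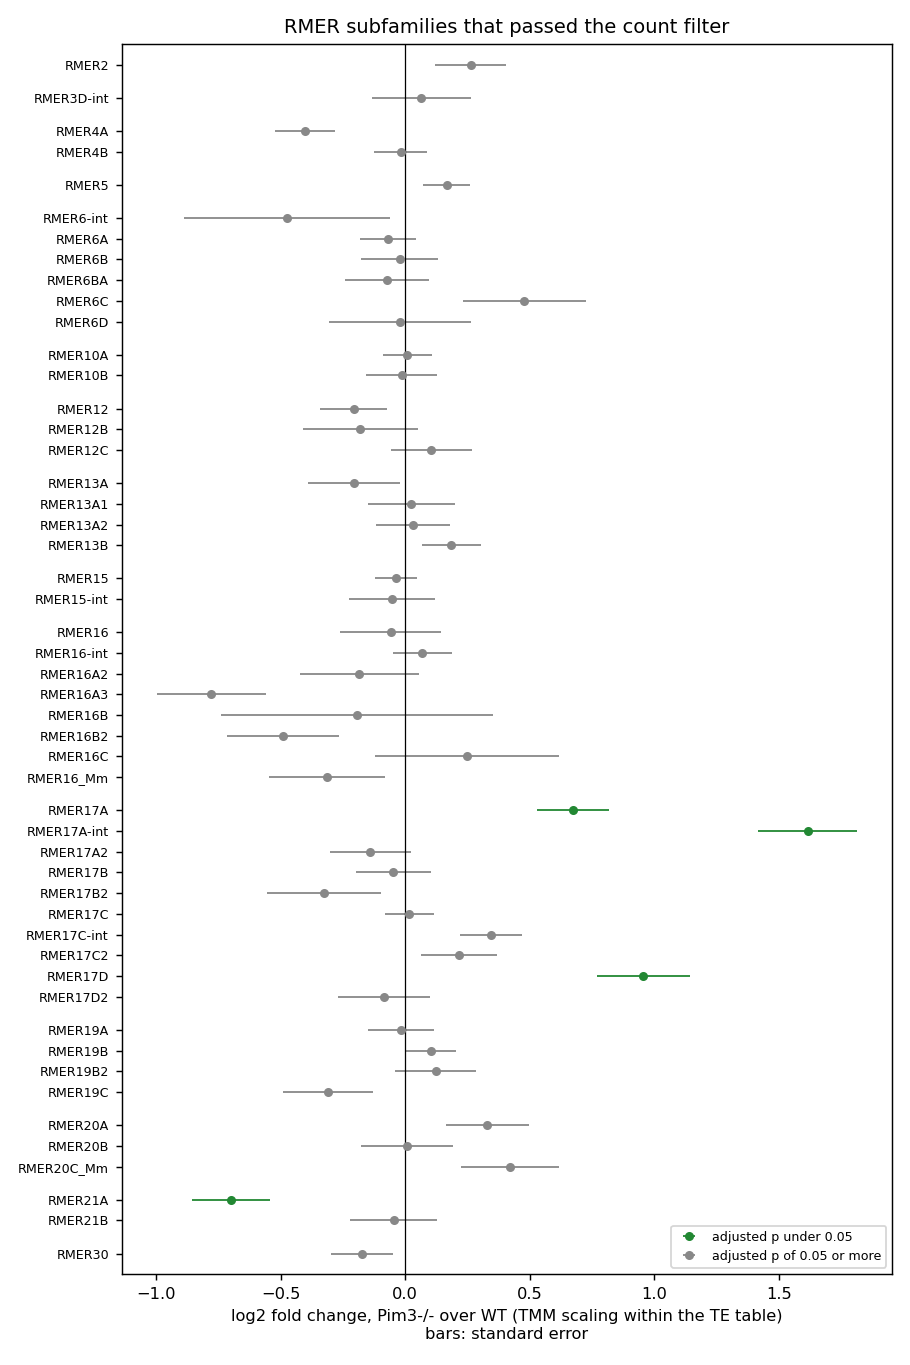
Log2 fold change (Pim3-/- over WT, x axis) of the 50 tested RMER subfamilies (y axis, grouped by number). Points are estimates of the edgeR QL fit and bars are standard errors; RMER17A-int at 1.61, RMER17D at 0.96 and RMER17A at 0.67 stand to the right and RMER21A at -0.70 to the left, in green for an adjusted p under 0.05.

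RMER17 has 10 members in the table, the LTRs RMER17A, A2, B, B2, C, C2, D and D2 and the internal parts RMER17A-int and RMER17C-int. RMER17A-int, the internal part that goes with the A type, had 40 counts in WT replicate 1, 45 in WT replicate 2 and 197 in each Pim3-/- library. In CPM of the TE table, which are counts per 1e6 counts after scaling, this was 78.4 and 70.1 in WT and 231 and 223 in Pim3-/- ESCs. The Pim3-/- clones lay close together and well above both WT samples. The means were 74.3 CPM ± 5.93 (SD, n = 2) and 227 CPM ± 5.34 (SD, n = 2), a 3.06-fold rise, or 1.61 as log2FC (SE 0.20, BH-adjusted p = 0.00228 by the edgeR QL test). Ranked by rise among the 828 tested TEs, it stood at place 15.

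RMER17A, an LTR of the same type, had 154 and 197 counts in the WT libraries against 386 and 459 in the Pim3-/- libraries. Its level was 302 and 307 CPM in the WT libraries and 452 and 520 CPM in the Pim3-/- libraries, with no overlap between the groups. This was a 1.60-fold rise, with a log2FC of 0.67 (SE 0.14, BH-adjusted p = 0.0279 by the edgeR QL test). RMER17D, the LTR of the D type, had 84 and 92 counts in the WT libraries against 227 and 291 in the Pim3-/- libraries. In CPM it was at 165 and 143 against 266 and 330, again without overlap, and the rise was 1.94-fold. The log2FC was 0.96 (SE 0.19, BH-adjusted p = 0.0204 by the edgeR QL test). The 3 calls were made again by the Wald test of DESeq2, with adjusted p-values of 2.49e-05 for RMER17A-int, 0.0316 for RMER17A and 0.0109 for RMER17D. With 1 WT library left out the estimates stayed near these values but the calls were lost. RMER17A-int was at 1.72 without WT replicate 1 and 1.53 without WT replicate 2, RMER17A at 0.69 in both, and RMER17D at 1.08 and 0.85. With WT replicate 1 or replicate 2 left out, none of the 828 TEs passed an adjusted p of 0.05, with 109 and 126 at an unadjusted p under 0.05, and RMER17A-int had an adjusted p of 0.203 and 0.155 in the edgeR QL test. For RMER17A and for RMER17D alike it was then 0.349 and 0.279.

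**Figure D2:**
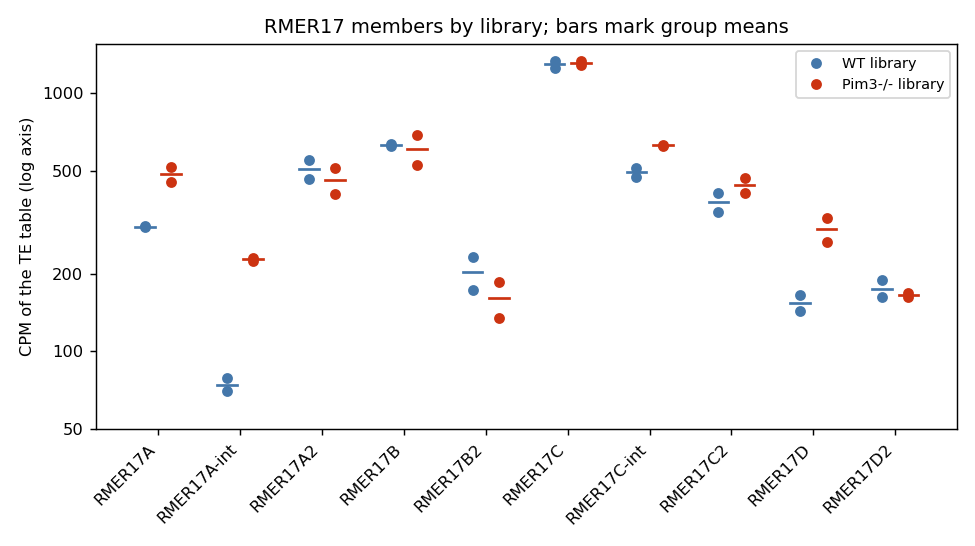
Level of the 10 RMER17 members (x axis) in CPM of the TE table (y axis, log scale). Each point is 1 library, blue for WT and red for Pim3-/-, and bars are group means; for RMER17A-int the Pim3-/- libraries are at 231 and 223 CPM and the WT libraries at 78.4 and 70.1 CPM.

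The other 7 members of RMER17 did not pass the test. RMER17C-int, the internal part of the C type, came nearest to the threshold, with 263 and 305 counts in the WT libraries against 540 and 552 in the Pim3-/- libraries. It stood at 516 and 475 CPM against 632 and 625 CPM, without overlap, and at a log2FC of 0.35 (SE 0.12, BH-adjusted p = 0.129 by the edgeR QL test). It passed with the totals of the TE table in place of TMM factors (adjusted p = 0.0371). RMER17C, the most counted LTR of the group, had 1253 and 1342 CPM in WT and 1336 and 1288 CPM in Pim3-/- ESCs, and a log2FC of 0.02 (SE 0.10). Its groups overlapped. RMER17C2 was at 0.22 (SE 0.15), RMER17B at -0.05 (0.15), RMER17B2 at -0.33 (0.23), RMER17A2 at -0.14 (0.16) and RMER17D2 at -0.08 (0.19). The median of the 10 was 0.12. Leaving RMER17 out, 1 of the other 40 RMER subfamilies passed the test, and their median was -0.02.

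A ratio of counts within a library does not depend on the scaling between libraries, and was used to compare the parts of a group. RMER17A-int had 0.260 and 0.228 counts for each count of RMER17A in WT, and 0.510 and 0.429 in Pim3-/- ESCs. The ratio was higher in both Pim3-/- libraries than in either WT library, by 0.94 on the log2 scale, with an SE of 0.25 from both fits taken as independent. RMER17A to RMER17A2 stood at 0.546 and 0.657 in WT and 0.877 and 1.27 in Pim3-/- ESCs. RMER17D to RMER17D2 stood at 0.875 and 0.885 in WT and at 1.64 and 1.97 in Pim3-/- ESCs, a log2 difference of 1.03 (SE 0.26). In both pairs the groups did not overlap, and the LTR without the ending 2 stood higher against its partner in Pim3-/- ESCs. RMER17B to RMER17B2 differed by 0.28 on the log2 scale (SE 0.28) and RMER17C to RMER17C2 by -0.20 (SE 0.18). These differences were close to 1 SE in size, although the groups overlapped for neither pair. Reads from sequence that related subfamilies share can be counted for either, so how counts fall between RMER17A and RMER17A2, or RMER17D and RMER17D2, is uncertain. An exact permutation test of 2 libraries against 2 cannot give a p below 1 in 3, so none is given for a ratio.

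The internal parts of 3 further types were set against an LTR of the same name, while RMER3D-int and RMER6-int were not. RMER17C-int to RMER17C was at 0.412 and 0.354 in WT against 0.473 and 0.485 in Pim3-/- ESCs, a log2 difference of 0.33 (SE 0.16). RMER15-int to RMER15 was at 0.162 and 0.154 against 0.134 and 0.179, and RMER16-int to RMER16 at 4.01 and 4.86 against 5.15 and 4.56. In both of these the groups overlapped.

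**Figure D3:**
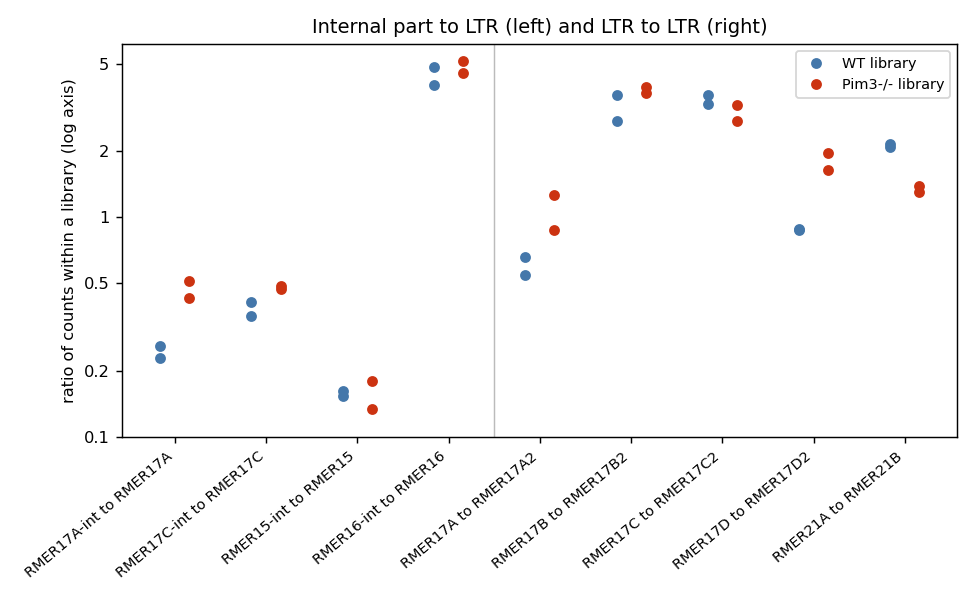
Ratio of counts within each library (y axis, log scale) for 4 pairs of an internal part and an LTR and 5 pairs of LTRs (x axis), with 1 point for each WT (blue) and Pim3-/- (red) library. RMER17D to RMER17D2 lies at 0.875 and 0.885 in WT and at 1.64 and 1.97 in Pim3-/-, while RMER15-int to RMER15 overlaps between the groups.

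RMER21A was the only RMER subfamily that fell by the test. This ERV1 LTR had 223 and 275 counts in the WT libraries against 250 and 212 in the Pim3-/- libraries, where the TE totals were larger. Scaled, it stood at 437 and 428 CPM in WT and at 293 and 240 CPM in Pim3-/- ESCs, with both clones below both WT samples. The log2FC was -0.70 (SE 0.16, BH-adjusted p = 0.0299 by the edgeR QL test), or 0.616 times the WT level. The call depended on the scaling and the filter, with an estimate that the filter moved little. RMER21A remained negative but lost the call with the totals of the TE table (-0.52, adjusted p = 0.0645), with the factors of the gene table (-0.44, adjusted p = 0.0723), with no filter (-0.70, adjusted p = 0.0518), with a filter on 10 counts in every library (-0.67, adjusted p = 0.0519), and without WT replicate 1 (-0.66, adjusted p = 0.357) or WT replicate 2 (-0.72, adjusted p = 0.279), all in edgeR, and over its alternatives the adjusted p ran from 0.000209 to 0.357. RMER21B, the other LTR of this group, was at 210 and 198 CPM against 211 and 184 CPM. The ratio of RMER21A to RMER21B, which no scaling touches, was 2.08 and 2.17 in WT and 1.39 and 1.31 in Pim3-/- ESCs. The remaining ERV1 members had log2FC values of 0.26 (RMER2, SE 0.14) and 0.17 (RMER5, SE 0.10), and neither passed the test.

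RMER10A, RMER10B, RMER15 and RMER15-int share the class ERVL with MuERVL. None of them passed the test, none had an unadjusted p under 0.05 in edgeR and none passed the Wald test of DESeq2. RMER15, the RMER subfamily with the most counts, had 1575 and 1800 counts in the WT libraries against 2452 and 2531 in the Pim3-/- libraries. After scaling these were 3089 and 2802 CPM against 2871 and 2867 CPM, with a log2FC of -0.04 (SE 0.08). The groups overlapped. RMER15-int was at 500 and 431 CPM in WT and 384 and 512 CPM in Pim3-/- ESCs. The LTRs RMER10A and RMER10B had log2FC values of 0.01 (SE 0.10) and -0.02 (SE 0.14).

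MuERVL itself, annotated as MERVL-int with its LTR MT2_Mm, had log2FC values of 1.89 (SE 0.16) and 1.69 (SE 0.26) in these libraries. Its level differed between the clones, and the CPM in Pim3-/- replicate 1 was 1.48 times that in replicate 2 for MERVL-int and 1.98 times for MT2_Mm. The same ratio was 1.03 for RMER17A-int, 0.869 for RMER17A and 0.806 for RMER17D. Over the 50 tested RMER subfamilies it ran from 0.433 to 1.42 with a median of 0.973, so that MERVL-int and MT2_Mm lay above the whole range. The count of RMER17A-int for each count of MERVL-int was 0.0353 and 0.0284 in WT and 0.0222 and 0.0318 in Pim3-/- ESCs, and the groups overlapped.

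Among the other ERVK groups no subfamily passed the test. RMER16A3 had the lowest log2FC of all RMER subfamilies, with 208 and 243 CPM in WT and 109 and 154 CPM in Pim3-/- ESCs. Its log2FC was -0.78 (SE 0.22, BH-adjusted p = 0.0656 by the edgeR QL test), and with a block for the replicate number the adjusted p was 0.00526 and without Pim3-/- replicate 2 it was 0.000519, both in fits with infinite prior degrees of freedom. RMER16B2 was at 255 and 195 CPM against 134 and 185 CPM, with a log2FC of -0.49 (SE 0.22). Over the 8 tested members of RMER16 the median was -0.19, from -0.78 to 0.25 for RMER16C, which had at most 23 counts in a library. RMER4A stood at 714 and 743 CPM in WT and 577 and 526 CPM in Pim3-/- ESCs, without overlap, with a log2FC of -0.40 (SE 0.12, BH-adjusted p = 0.0806 by the edgeR QL test). RMER4B was at -0.02 (SE 0.11). RMER16B2 was at -0.74 without Pim3-/- replicate 2 and at -0.27 without Pim3-/- replicate 1. Fits without a Pim3-/- library called more TEs of the whole table than the fit of all 4 libraries. Further RMER calls made only in such fits are not listed.

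The RMER20 LTRs had log2FC values of 0.42 (RMER20C_Mm, SE 0.20), 0.33 (RMER20A, 0.16) and 0.01 (RMER20B, 0.18). RMER6C was at 0.48 (SE 0.25) with 1 clone near the WT samples, at 173 and 171 CPM in WT and 180 and 298 CPM in Pim3-/- ESCs. The other 5 tested members of RMER6 lay from -0.07 to -0.02, except RMER6-int at -0.47 (SE 0.41), which had 26 and 30 counts in the WT libraries against 18 and 43 in the Pim3-/- libraries. RMER19B, second only to RMER15 in counts, had 2140 and 2025 CPM in WT against 2412 and 2056 CPM in Pim3-/- ESCs, a log2FC of 0.10 (SE 0.10), and the 4 tested RMER19 LTRs ran from -0.31 to 0.12. The groups RMER12 and RMER13, with 3 and 4 LTRs, ran from -0.21 to 0.10 and from -0.20 to 0.18. RMER3D-int was at 0.06 (SE 0.20) and RMER16-int at 0.07 (SE 0.12). RMER30, the DNA transposon, was at 643 and 732 CPM against 605 and 615 CPM, a log2FC of -0.17 (SE 0.12), and did not pass the test either.

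Other ERV groups of the same table are given for comparison. The middle 50% of the 40 RMER subfamilies outside RMER17 lay between -0.19 and 0.08, of RLTR between -0.43 and 0.34, of IAP between -0.32 and 0.26 and of MaLR between -0.16 and 0.24. Of 170 tested RLTR subfamilies, 2 were called higher and 16 lower, with values from -1.86 to 1.62 and a median of -0.01. Of 21 IAP subfamilies 1 was called higher and 0 lower, where 4 had an unadjusted p under 0.05 and the Wald test called 1 in all. Among 85 MaLR subfamilies the numbers were 2 and 4, with a median of 0.01. The 255 tested ERVK subfamilies, to which RMER17 belongs, held 6 called higher (2.35%) and 22 called lower (8.63%). RMER17A-int, RMER17D and RMER17A were 3 of these 6, with ERVB4_2-I_MM-int, MLTR31F_MM and IAPEY_LTR. These counts are a description, and no test of a difference between the groups was made.

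**Figure D4:**
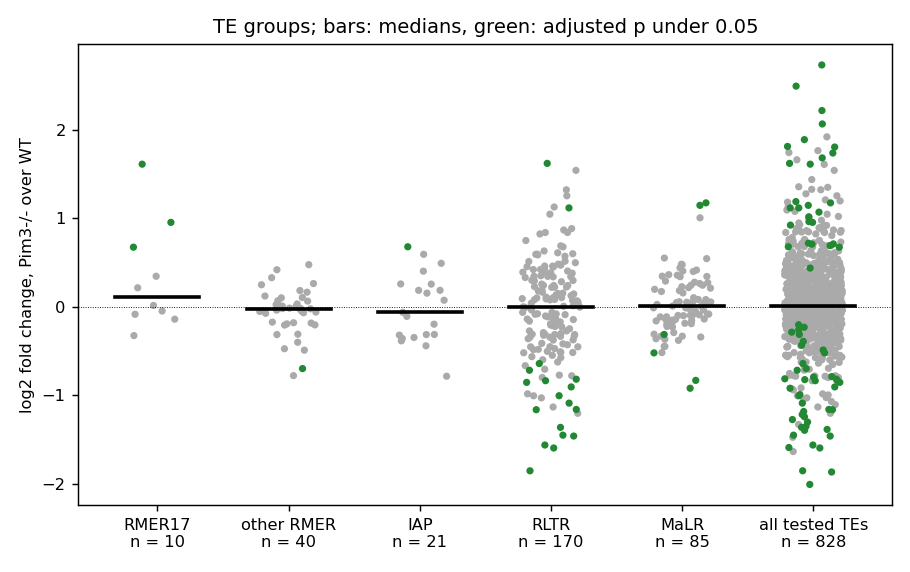
Log2 fold change (Pim3-/- over WT, y axis) of the tested subfamilies of RMER17, other RMER, IAP, RLTR and MaLR elements and of all tested TEs (x axis). Each point is 1 subfamily, green for an adjusted p under 0.05 and grey otherwise, and bars are medians, at 0.12 for RMER17 and -0.02 for the other RMER elements; RLTR values reach from -1.86 to 1.62.

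The sign of the log2FC of many RMER elements depended on the scaling. As a share of all TE counts, RMER elements were at 2.36% ± 0.04 (SD, n = 2) in WT and at 2.71% ± 0.07 (SD, n = 2) in Pim3-/- ESCs, and RMER17 alone at 0.396% ± 0.003 (SD, n = 2) and 0.510% ± 0.003 (SD, n = 2). The mean share of MaLR elements rose as well, from 9.57% to 10.3%, and that of IAP elements from 0.803% to 0.870%. That of RLTR elements fell from 6.12% to 5.25%. Set against the gene table, there were 562 and 619 RMER counts for every 1e6 gene counts in the WT libraries against 953 and 1013 in the Pim3-/- libraries. With the library sizes and TMM factors of the gene table in place of those of the TE table, the median of all tested TEs rose by 0.262 and that of the 50 RMER subfamilies from -0.02 to 0.25, so that RMER elements as a whole stayed at -0.02 from all TEs. Then 42 of the 50 were above 0, against 76.2% of all TEs, and 22 were so with scaling within the TE table, against 50.2%. RMER17A-int, RMER17D and RMER17A were at 1.88, 1.23 and 0.94 with the gene table's factors, and their calls held. That fit called 12 RMER subfamilies higher and 0 lower, against 21% and 4.11% of all TEs, with 19 at an unadjusted p under 0.05, against 302 of all 828 TEs. Its prior degrees of freedom were infinite, so that this number reflects a change in both the scaling and the estimate of spread. When they were held at 6.56, as estimated with scaling within the TE table (a setting added after the data were seen), 4 of the 50 were called higher, RMER17C-int being the fourth (adjusted p = 0.0397 in the edgeR QL test), and 0 lower, where 13 had an unadjusted p under 0.05. Among all 828 TEs this setting called 48 higher and 18 lower, with 245 at an unadjusted p under 0.05.

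A list of 38 genes that silence ERVs, all tested, was set beside these values. In Pim3-/- ESCs 12 of them were lower and 2 higher at an adjusted p under 0.05, against 16.2% and 17.6% of all genes. The median log2FC of the list was -0.43, beside 0.07 for all genes. Dnmt3b, a de novo DNA methyltransferase, fell from 142 CPM ± 20.7 to 57.9 CPM ± 12.3 (SD, n = 2), with a log2FC of -1.30 (SE 0.21, BH-adjusted p = 0.00636 by the edgeR QL test). Zfp932, a KRAB zinc finger gene, fell by 1.30 on the log2 scale (SE 0.27), and Sumo2, which encodes a small modifier of proteins, had a log2FC of -1.21 (SE 0.19). The higher genes were Rcor1, a partner of the demethylase KDM1A, and Zfp809, a zinc finger gene that targets proviral DNA, both at 0.97 (SE 0.19 and 0.26). Trim28, the corepressor of the zinc finger proteins, had 39564 and 46172 counts in the WT libraries against 39314 and 27938 in the Pim3-/- libraries, a log2FC of -0.68 (SE 0.24) and an adjusted p of 0.0586 in the edgeR QL test against 0.00743 in the Wald test of DESeq2. Setdb1, the H3K9 methyltransferase, was at 0.21 (SE 0.18) and Dnmt1, the maintenance DNA methyltransferase, at -0.07 (SE 0.18), and neither passed the test.

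The direction of this list, too, moved with the scaling. When library totals replaced TMM factors its median was 0.02 while that of all genes was 0.52, and 7 of its 38 genes were called higher and 3 lower. Among all 18444 tested genes, that fit called 6594 higher and 1094 lower. Relative to all genes the list lay lower under both scalings. The calls on this list in the edgeR QL test were lost with WT replicate 1 or replicate 2 left out, as were most calls among all genes. Fits without a Pim3-/- library called more genes of the whole table than the fit of all 4 libraries. Their calls on this list are therefore not counted here. Whether the levels of these genes have a part in those of the RMER elements was not tested.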

How the data were processed

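The 2 WT and 2 Pim3-/- RNA-seq libraries were grouped by their labels. The authors deposited raw counts per TE subfamily and per gene, without normalization. The paper names Cutadapt, Hisat2, mm10, Ensembl genes and RepeatMasker TEs, and Squire for a TE plot, while the submitters' processing notes name Trim Galore, STAR, featureCounts and GRCm38. Which of these made the tables, how reads with several locations were counted and whether strand was used are not given in the sources used here. This bears on repeats, because reads shared by several copies can be dropped, split or counted for a related subfamily.

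In edgeR 4.0.16, filterByExpr removed low rows (at least 10 counts in enough libraries and 15 over all), TMM factors were computed within each table (18444 genes and 828 TEs tested), and edgeR's quasi-likelihood test was run with a prior count of 0.125 in R 4.3.3. Benjamini-Hochberg adjustment ran over each whole table. A standard error is the log2 fold change divided by the square root of its F statistic. The test was also run on counts simulated from its own dispersion estimates, which cannot check it against variation between clones. Alternatives were DESeq2 1.42.0 (size factors, Wald test), library totals, the gene table's factors, other filters, a block for the replicate number and the omission of each library. Families were taken from annotation columns of the paper's supplement.

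Named are all RMER subfamilies past the test, all RMER17 members and internal parts, the 3 largest rises and falls and the 3 most counted, while other members, among them RMER4A, were described after their values had been seen. Of the repressor genes, up to 3 past the test in each direction are named by size, with Trim28, Setdb1 and Dnmt1. Tasor was matched to its older symbol Fam208a, and Zfp42 stands both on the repressor and on the ESC list. The members and lists were chosen with earlier results of these data known. Sequences of RMER elements and single genomic copies were not analysed here.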

Additional observations from a re-analysis of the deposited data

How the results depend on the processing

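The calls of RMER17A-int, RMER17A and RMER17D held with the size factors of DESeq2, with the totals of the TE table, with the factors of the gene table, with both other filters, in the Wald test of DESeq2 and in the fit with a replicate block. The number of RMER subfamilies called higher, 3, became 12 with the factors of the gene table, where the prior degrees of freedom also became infinite, and 4 where these were held at 6.56. It lay between 0 and 4 with 1 library left out. The number called lower, 1, became 0 with the totals of the TE table, with the factors of the gene table (also at the prior degrees of freedom from scaling within the TE table), with no filter and with at least 10 counts in every library, and became 2 with the replicate block. With 1 library left out it lay between 0 and 4. At an unadjusted p under 0.05, edgeR held 7 to 19 RMER subfamilies under these settings with all 4 libraries, against 180 to 302 of all tested TEs. With TMM factors of the TE table it was 7 of 50 against 215 of 828. With the factors of the gene table it was 19 of 50 against 302 of 828. Either WT library left out ended every call among TEs, in fits where the lone library is assumed to vary like the other group. Fits without a Pim3-/- library, like the blocked fit, had infinite prior degrees of freedom. They also called more of all TEs than the fit of all 4 libraries without a block. Without WT replicate 1 or 2, 6 and 4 RMER subfamilies had an unadjusted p under 0.05. The RMER median was 0.17 with the totals of the TE table, 0.25 with the factors of the gene table, 0.012 with at least 10 counts in every library, and between -0.033 and 0.051 with 1 library left out. For RMER17 the median was 0.30 and 0.38 under those 2 scalings.

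The totals of the TE table and the factors of the gene table raised the median of all TEs by 0.180 and 0.262, and members just below 0 changed sign with it. With the totals of the TE table RMER15-int was at 0.14, RMER17A2 at 0.040, RMER17B at 0.13, RMER17D2 at 0.10 and RMER15 at 0.15, and with the factors of the gene table they were at 0.22, 0.13, 0.21, 0.19 and 0.23. With 1 library left out, RMER15-int ran from -0.27 to 0.14, RMER17A2 from -0.31 to 0.020, RMER17B from -0.25 to 0.13, RMER17C from -0.012 to 0.066, RMER17D2 from -0.19 to 0.053, RMER3D-int from -0.12 to 0.22, RMER6-int from -1.20 to 0.00080, RMER15 from -0.11 to 0.063 and RMER19B from -0.018 to 0.21, and the cause was not tested. The gain in share of RMER elements, 0.350 percentage points, and that of RMER17A-int over RMER17A, 0.94 on the log2 scale, kept their sign with each library left out, from 0.299 to 0.402 and from 0.82 to 1.07. A gain in share was not particular to RMER elements, since MaLR and IAP elements had one too. Of the repressor genes, 7 were called higher and 3 lower when library totals replaced TMM, and with 1 library left out between 0 and 6 higher and between 0 and 21 lower. The replicate numbers are shared by label only. Same-numbered libraries deviated from their group means with a correlation of 0.02 over the 828 TEs and -0.24 over the 50 RMER subfamilies. Subfamilies are not independent replicates. In the fit with the block, whose prior degrees of freedom were also infinite, 45 TEs were called higher and 63 lower, against 28 and 44 without it, and 225 against 215 had an unadjusted p under 0.05. With 2 libraries in each group, RMER16B, RMER16C and RMER6-int had under 50 counts in every library, which limits their values. RMER17A-int had under 50 in both WT libraries, at 40 and 45, which limits its fold change too.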
